A study of Mus musculus with 6 samples.

Results

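The genes described here are the early growth response factors Egr1, Egr2 and Egr3 and the corepressors Nab1 and Nab2, 5 genes of the 41128 features listed for each library. They were chosen by name with their values in both groups of this study already known, so their differences between the groups are given as a description, without a test. Lenses of mouse embryos at stage E15.5 were compared by RNA sequencing between 2 groups of 3 biological replicates. The conditional knockout (cKO) group had the genotype beta1 Flox/Flox MLR10 Cre+ on a mixed strain background, and each of its replicates pooled 30 lenses. MLR10 is a Cre transgene that is active in lens cells, and the floxed gene, Itgb1, encodes β1-integrin. Wild-type replicates came from strain C57Bl/6, carried neither the floxed allele nor Cre, and held 75 lenses each; their records repeat samples of an earlier series. Genotype, Cre transgene, strain background and pool size all separate the 2 groups alike and cannot be told apart. The earlier series of the wild-type records and the read depth given below separate the groups in the same way.

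EGR proteins are zinc finger transcription factors of the immediate early class, whose genes are switched on within minutes by growth factor, adhesion and stress signals, largely through ERK kinases and the serum response factor SRF. NAB proteins bind EGR proteins and mostly repress their activity, and Nab2 is itself a known target of EGR factors, so the pair forms a negative feedback loop. Egr2, also called Krox20, is best known for its part in hindbrain segmentation and in the myelination program of Schwann cells, and Egr3 for its parts in muscle spindles and lymphocytes.

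Between 20036554 and 28095318 reads were counted per cKO library, and between 10023049 and 11531139 per wild-type library. Itgb1 was at 236 to 275 CPM (counts of a gene scaled to a common library total) in cKO and lower than in wild type, with a log2 fold change of -0.72 (limma, adjusted p = 1.63e-05), measured over the whole gene and not only the floxed part. Lens fiber markers summed to 201695 to 232187 CPM in cKO and 209508 to 226763 CPM in wild type, a sum made up mostly of Cryaa. Of 9 fiber markers tested, Crygb was called higher (log2 fold change 0.45) and Mip (-0.21) and Gja3 (-0.34) lower. Of 4 epithelial markers tested, Cdh1 was called higher (0.46) and Npnt (-0.52) and Foxe3 (-0.37) lower, while Pax6 (-0.02) was not called and Sox2, also on that list, was listed at 0 in every library. Among 11941 genes that reached 1 CPM in 3 or more libraries, limma on log2(CPM + 1) called 20.9% higher and 15.9% lower in cKO at a Benjamini-Hochberg adjusted p under 0.05.

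Egr1 (ENSMUSG00000038418; GRCm38 chromosome 18, 34859823 to 34864984, plus strand, protein coding) was the most abundant of the EGR genes in every library. It was at 59.9, 82.0 and 101 CPM in cKO replicates 1, 2 and 3, from 1201, 1658 and 2840 reads. In wild-type replicates 1, 2 and 3 it was at 5.81, 8.94 and 7.58 CPM, from 67, 102 and 76 reads. The lowest cKO library was thus far above the highest wild-type library, and the groups did not overlap. The mean was 81.0 ± 20.6 CPM in cKO libraries and 7.44 ± 1.57 CPM in wild type (SD, n = 3 each), a ratio of 10.9. On the log2(CPM + 1) scale the difference was 3.27 (SE 0.189). By difference on this scale Egr1 took place 9 among the 11941 genes tested. Per length it moved from the 20.2 to 28.1 percentile of tested genes in wild type to the 75.8 to 84.9 percentile in cKO, ranked within each library by RPKM (CPM per kilobase of gene length).

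**Figure D1:**
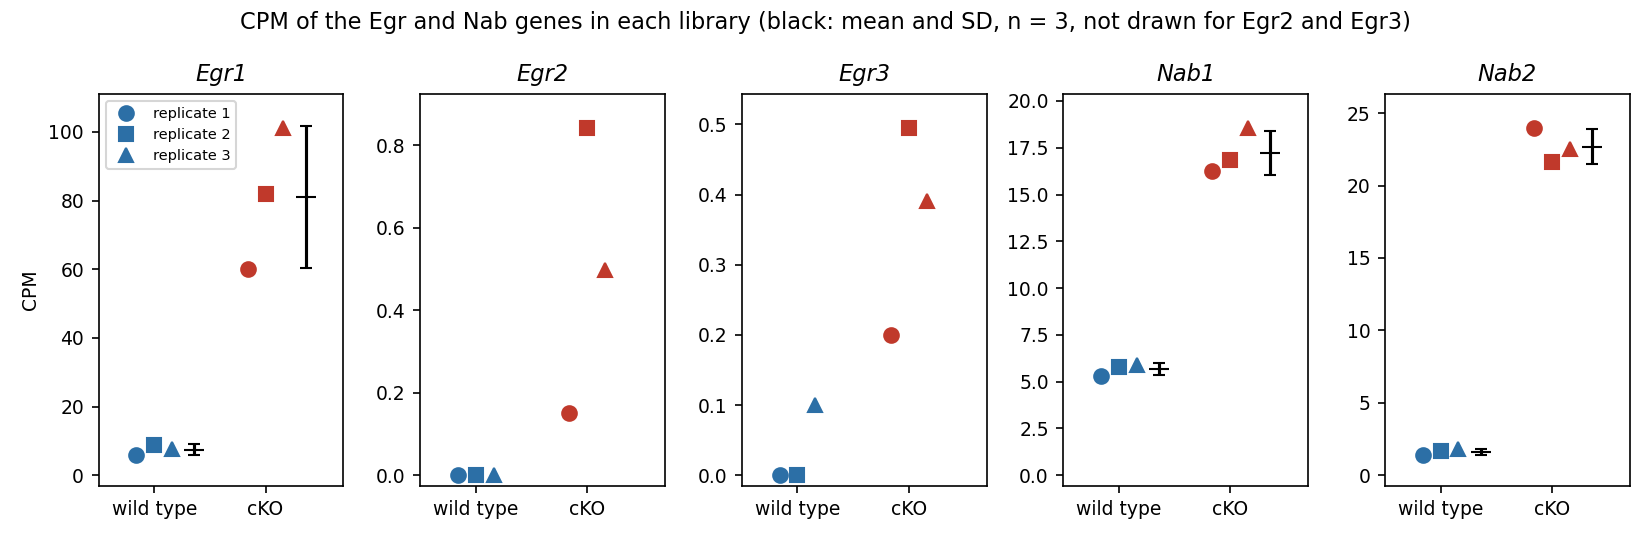
CPM of Egr1, Egr2, Egr3, Nab1 and Nab2 (one panel each, linear axis from 0) in the 3 wild-type libraries (blue) and the 3 cKO libraries (red), with the replicate shown by the symbol and the mean and SD in black for Egr1, Nab1 and Nab2. Every cKO point lies above every wild-type point in each panel, while the cKO points of Egr1, from 59.9 to 101 CPM, spread more widely than those of Nab2, from 21.6 to 24.0 CPM.

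The spread of Egr1 within the cKO group was itself wide. The highest cKO library was 1.69 times the lowest, and the SD of log2(CPM + 1) over the 3 libraries was 0.375. Among the 1533 tested genes within 0.5 log2 units of its cKO level the median SD was 0.0922, and Egr1 stood at the 99.8 percentile of that spread. In wild type its SD was 0.275, at the 90.7 percentile of 1695 genes of like level. The corepressor genes did not share this spread. In cKO, Nab1 had an SD of 0.0928 (39.4 percentile of 2196 genes of like level) and Nab2 an SD of 0.0716 (29.1 percentile of 2343).

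Egr2 (ENSMUSG00000037868; chromosome 10, 67535475 to 67542188, plus strand, protein coding) was close to the limit of detection. It had 3, 17 and 14 reads in cKO replicates 1, 2 and 3, equal to 0.150, 0.841 and 0.498 CPM, and 0 reads in each wild-type library. Reads were seen in all 3 cKO libraries, with replicate 1 the lowest. Pooled over the group the cKO level was 0.497 CPM (95% exact Poisson interval 0.345 to 0.695, counting error only). A floor of 3 counts over the 32961345 wild-type reads is 0.0910 CPM, and the pooled cKO level was 5.47 times this floor. That ratio is not a lower bound on the fold change. The 95% exact Poisson interval for 0 wild-type reads reached 0.112 CPM, and cKO replicate 1 was at 0.150 CPM.

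The RefSeq promoter table (GRCm38.p6) holds windows for 3 of the 5 genes, Egr2, Nab1 and Nab2. The 250 bases before one of the annotated starts of Egr2 are printed because they hold letters of the CArG box, the element bound by SRF, and of TGACG, the core of the CRE bound by CREB. Capitals mark those letters, on either strand.

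Egr2, chr10:67537619-67537868, plus strand: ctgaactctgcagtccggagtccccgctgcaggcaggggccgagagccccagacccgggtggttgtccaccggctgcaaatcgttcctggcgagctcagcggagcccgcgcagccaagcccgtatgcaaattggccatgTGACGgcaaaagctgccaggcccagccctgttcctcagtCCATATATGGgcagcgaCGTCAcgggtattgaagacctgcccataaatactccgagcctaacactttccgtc

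The same CArG letters fall within 3 of the 5 windows of Egr2, which overlap. The window before a start at lower coordinates holds another CArG match, and the remaining window holds none. Of all 32851 windows of this length in the table, 1.47% hold a CArG box, 17.8% hold TGACG and 1.55% hold the full CRE, TGACGTCA, which contains the core and was not found in any window of the 3 genes. The ETS motif CCGGAAG, present in 6.91% of all windows, was not found in them either. These are matches of letters on both strands, not measured binding.

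Egr3 (ENSMUSG00000033730; chromosome 14, 70077203 to 70082614, plus strand, protein coding) was as scarce as Egr2. It had 4, 10 and 11 reads in cKO replicates 1, 2 and 3, equal to 0.200, 0.495 and 0.392 CPM. In wild type it had 0, 0 and 1 read, the single read being 0.0998 CPM in replicate 3. The groups did not overlap, although the gap between cKO replicate 1 and wild-type replicate 3 was a few reads. The ratio of the pooled levels was 12.06, with a 95% exact interval of 1.97 to 495 for counting error only. Both Egr2 and Egr3 had their lowest cKO value in replicate 1 and their highest in replicate 2. The deposited values imply a length of 1.416 kb for Egr3, against 4406 exon bases in GENCODE M21, so its RPKM rests on a shorter gene model. For Egr1, Egr2, Nab1 and Nab2 the implied length equals the exon bases of the annotation.

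Neither Egr2 nor Egr3 reached 1 CPM in 3 libraries, so 3 of the 5 genes, Egr1, Nab1 and Nab2, entered the fit. Egr4, the remaining factor of the family, had 1 read in cKO replicate 1 and 0 in the other 5 libraries, at or under the 3-count floor in both groups. Egr1 supplied 96.8% to 98.6% of the summed RPKM of Egr1, Egr2 and Egr3 in cKO and 96.0% to 100% in wild type.

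Nab2 (ENSMUSG00000025402; chromosome 10, 127660918 to 127668568, minus strand, protein coding) encodes the corepressor that is itself EGR inducible. It was at 24.0, 21.6 and 22.5 CPM in cKO replicates 1, 2 and 3, from 480, 437 and 632 reads. In wild type it was at 1.39, 1.67 and 1.80 CPM, from 16, 19 and 18 reads. The 3 cKO libraries lay close together and well above the wild-type libraries. The means were 22.7 ± 1.18 and 1.62 ± 0.209 CPM (SD, n = 3 each), a ratio of 14.04, and the difference on the log2(CPM + 1) scale was 3.18 (SE 0.117), place 10 among the genes tested. That scale understates the change of a gene this low in wild type, and a pseudocount of 0.1 in place of 1 gave 3.74. The order of Egr1 and Nab2 turned with it: Nab2 was above Egr1 with that pseudocount (3.74 against 3.42), with edgeR (3.78 against 3.41) and with DESeq2 (3.79 against 3.41).

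The locus of Nab2 is crowded, and the library kit does not mark strand. Stat6, a cytokine signalling factor gene on the opposite strand, overlaps the end of Nab2 by 40 exon bases, or 1.36% of its exon bases. Nemp1, on the opposite strand at the other end, shares 151 exon bases, or 5.13%. The antisense gene Gm16229 lies inside Nab2 and overlaps 1050 of its exon bases, or 35.7%. Stat6 stood at 2.45 to 3.38 CPM in cKO and 1.58 to 2.17 CPM in wild type (log2 fold change 0.40, limma adjusted p = 0.0505), and Nemp1 at 6.19 to 8.11 CPM and 6.09 to 8.15 CPM (log2 fold change -0.001). Gm16229 was listed at 0 reads in all 6 libraries. The sources used here do not say how reads that fall on 2 genes were counted, and the level of Nab2 is uncertain to that extent. Of the 50-base words of Nab2 transcripts, the length of a read, 34.9% also occur in transcripts of other genes, 31.3% in Gm16229 and 3.47% in Nemp1. Transcripts of Egr1, Egr2 and Egr3 share 0 words with other genes, and those of Nab1 share 2.36%.

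Nab1 (ENSMUSG00000002881; chromosome 1, 52457294 to 52500679, minus strand, protein coding) encodes the other corepressor, whose expression is generally broader and less inducible. It was at 16.3, 16.8 and 18.5 CPM in cKO replicates 1, 2 and 3, from 326, 340 and 521 reads. In wild type it was at 5.29, 5.79 and 5.89 CPM, from 61, 66 and 59 reads. Each group was tight and they did not overlap. The means were 17.2 ± 1.19 and 5.65 ± 0.319 CPM (SD, n = 3 each), a ratio of 3.04, and the log2(CPM + 1) difference was 1.45 (SE 0.106), place 67 among the genes tested.

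The promoter window of Nab1 holds 3 matches to GCGNGGGCG, the consensus bound by EGR zinc fingers, which occurs in 4.70% of all windows. The sites are shown as the only matches to the EGR consensus in the windows of the 3 genes; binding was not measured. They lie in an exon of GENCODE M21, upstream of the RefSeq start, so only 10 bases on each side are printed, on the gene's strand with the match in capitals, and the first is a match on the opposite strand.

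Nab1, chr1:52500571-52500599, minus strand: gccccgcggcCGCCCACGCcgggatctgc
Nab1, chr1:52500539-52500567, minus strand: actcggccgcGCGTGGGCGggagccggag
Nab1, chr1:52500468-52500496, minus strand: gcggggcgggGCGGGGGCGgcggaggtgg

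The window of Nab1 also holds TGACG letters on the opposite strand, 123 bases upstream of the start. The window of Nab2 (chromosome 10, 127666704 to 127666953) held none of the motifs searched. That window precedes a RefSeq start inside the gene as annotated in GENCODE M21, and the result says only that those letters are not within it.

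Among the 5 genes, 5 of 5 had higher values in all cKO libraries than in all wild-type libraries. Over all 41128 listed features 9.77% did so, and over the genes tested 26.9%, while 48.1% of the genes tested had groups without overlap in either direction. The members were chosen on this contrast, so nothing is read from that count. Neighbouring genes on the chromosome were also compared. Of the 10 nearest tested genes that do not overlap a member, 1 on each side of each, 2 were called higher and 2 lower. That is near the share of all tested genes called, 20.9% higher and 15.9% lower. The log2 fold changes of the 10 ran from -0.41 to 0.28, all smaller in size than those of Egr1, Nab1 and Nab2. Reep2, on the lower side of Egr1, was called lower (log2 fold change -0.23, limma adjusted p = 0.0187) and Etf1, on its other side, higher (0.28, limma adjusted p = 0.0193). Ado, 2323 bases from Egr2, averaged 42.7 ± 3.54 CPM in the cKO and 40.5 ± 1.59 CPM in the wild-type libraries (SD, n = 3 each; limma adjusted p = 0.545).

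Per length, the balance between factors and corepressors can be compared within each library. The summed RPKM of Egr1, Egr2 and Egr3 was 13.6, 18.9 and 23.0 in cKO and 1.30, 1.99 and 1.76 in wild type (replicates 1, 2 and 3). The summed RPKM of Nab1 and Nab2 was 12.1, 11.5 and 12.2 in cKO and 1.76, 1.98 and 2.05 in wild type. The factor to corepressor ratio was therefore 1.12, 1.65 and 1.89 in cKO and 0.735, 1.01 and 0.861 in wild type. The groups did not overlap in this ratio, but the gap between cKO replicate 1 and wild-type replicate 2 was narrow beside the spread within cKO. The level of Nab2 enters this ratio and those below, with the uncertainty from overlapping genes given above. Whether the groups would stay apart under another way of counting shared reads was not tested.

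**Figure D2:**
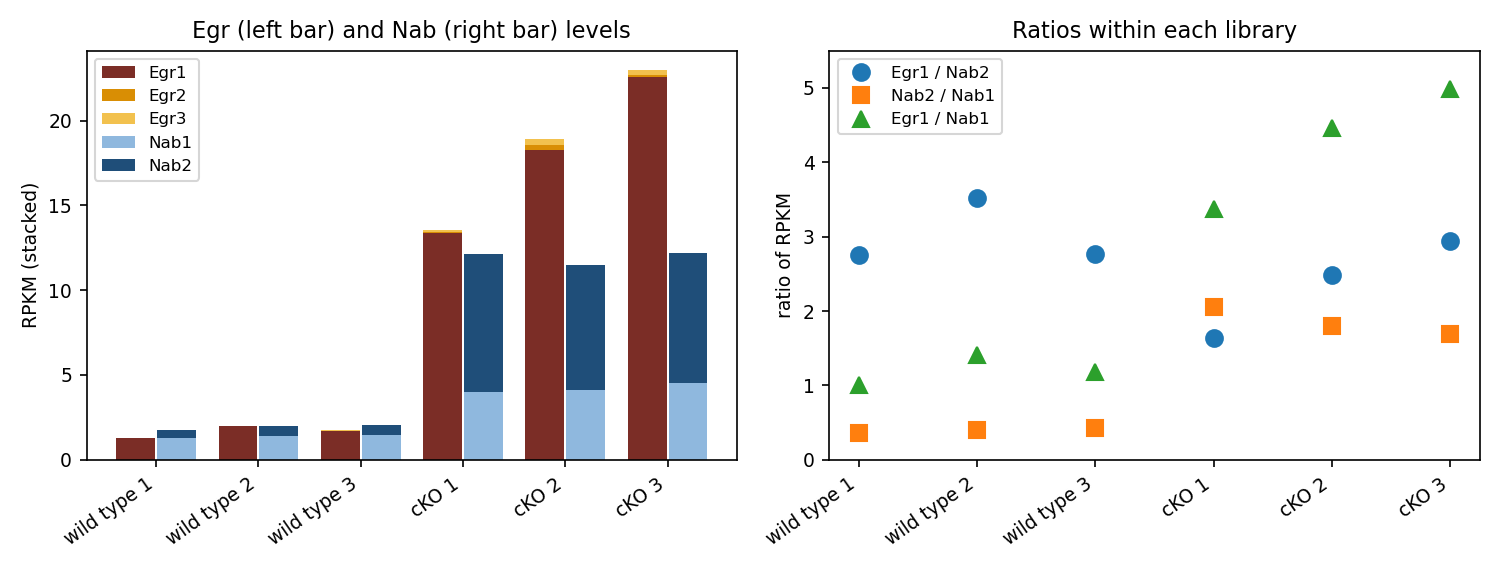
Left, stacked RPKM of Egr1, Egr2 and Egr3 (left bar) and of Nab1 and Nab2 (right bar) in each library; right, the RPKM ratios Egr1 to Nab2, Nab2 to Nab1 and Egr1 to Nab1 in each library. Nab2 is the smaller part of the Nab bar in wild type (26.8% to 29.8%) and the larger part in cKO (62.8% to 67.2%), while the Egr1 to Nab2 ratio overlaps between the groups.

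The make-up of the corepressor pair differed between the groups. Nab2 was 26.8%, 28.6% and 29.8% of the summed Nab RPKM in wild type and 67.2%, 64.2% and 62.8% in cKO. The order of the pair was therefore opposite, with Nab1 above Nab2 in every wild-type library and Nab2 above Nab1 in every cKO library. The Nab2 to Nab1 ratio was 0.397 ± 0.0300 in wild type and 1.85 ± 0.187 in cKO (SD, n = 3 each). Egr1 relative to Nab2 was 2.75, 3.52 and 2.77 in wild type and 1.64, 2.49 and 2.95 in cKO, so the groups overlapped in that ratio. Egr1 relative to Nab1 was 1.00, 1.41 and 1.18 in wild type and 3.37, 4.46 and 4.98 in cKO, with no overlap. In order of mean RPKM the cKO levels ran Egr1 (18.1 ± 4.59), Nab2 (7.71 ± 0.402), Nab1 (4.20 ± 0.289), Egr3 (0.256 ± 0.106) and Egr2 (0.146 ± 0.102), of which only the last neighbours, Egr3 and Egr2, overlapped in their library values. The order of that last pair rests on the shorter gene model of Egr3: by mean CPM, Egr2 (0.496) was above Egr3 (0.362). In wild type the order was Egr1 (1.66 ± 0.350), Nab1 (1.38 ± 0.0779) and Nab2 (0.550 ± 0.0709), with Egr1 and Nab1 overlapping (SD, n = 3).

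The genes whose library values most resembled those of Egr1 and Nab2 were found by the root mean square difference of log2(CPM + 1) over the 6 libraries, each gene centred on its wild-type mean. For Egr1 the nearest of the named genes tested was Nab2 (0.279), followed by Scfd2 (0.287), Nmb (0.337), Acta2 (0.415) and Tagln (0.434). For Nab2 the nearest was Scfd2 (0.117), which was at 111, 112 and 120 CPM in cKO and 12.3, 12.4 and 14.1 CPM in wild type. Egr1 (0.279), Acta2 (0.306), Tagln (0.358) and Bend6 (0.403) came next. This likeness includes the group difference itself and carries no test. Within cKO, Nmb, a neuropeptide gene, had the order of Egr1, at 30.8, 37.3 and 49.2 CPM in replicates 1, 2 and 3. The smooth muscle genes Acta2, at 46.3, 30.2 and 56.8 CPM, and Tagln, at 17.1, 13.8 and 19.9 CPM, were lowest in replicate 2, as was Nab2.

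**Figure D3:**
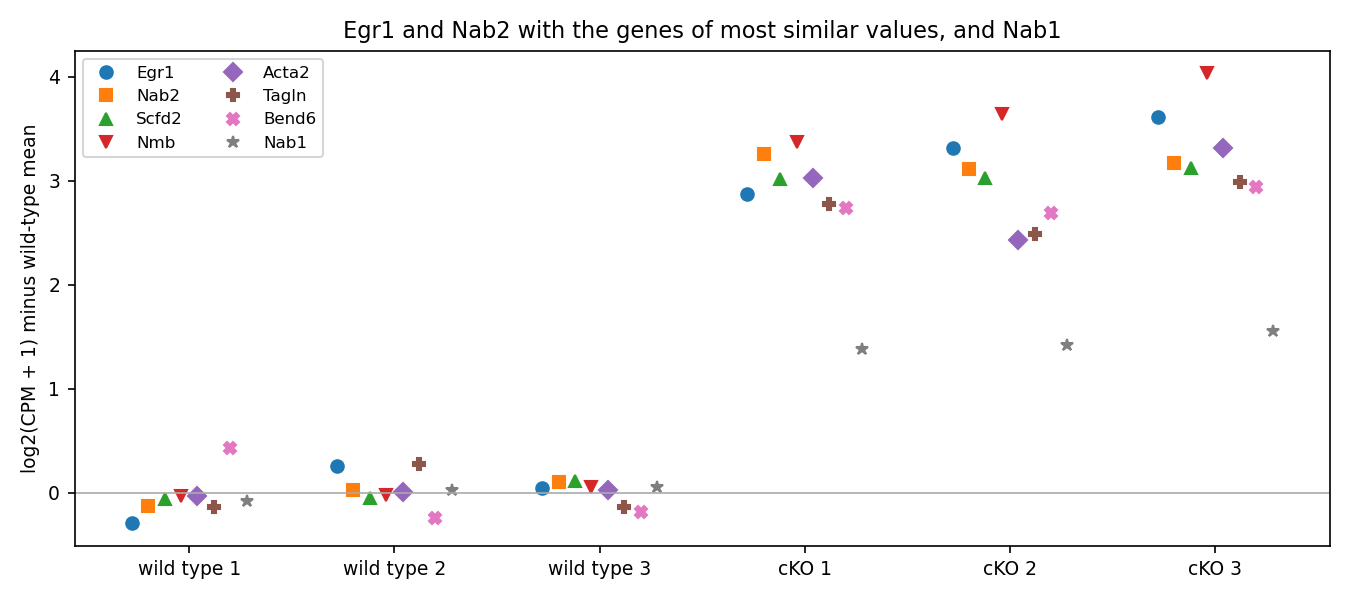
log2(CPM + 1) minus the wild-type mean of each gene (vertical axis, log2 units) in the 3 wild-type and 3 cKO libraries for Egr1, Nab2, the genes nearest to either, and Nab1. Nab2 and Scfd2 keep close to each other in all libraries, Egr1 is the lower of Egr1 and Nab2 in cKO replicate 1 and the higher in replicates 2 and 3, and Nab1 lies below the rest in cKO.

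Factors that act on Egr promoters were measured as a list of 12 (SRF and its ternary complex and MRTF partners, ETS factors and CREB factors), all of which were tested. Of these 5 were higher and 0 lower in cKO, or 41.7%, beside 36.9% of all tested genes called either way. Ets1, an ETS factor of endothelium and lymphocytes among other cells, rose from 15.96 ± 2.43 to 35.97 ± 4.69 CPM (log2 fold change 1.13, limma adjusted p = 1.29e-05; SD, n = 3 each). Elk3 (0.64), a ternary complex factor that partners SRF, its relative Elk4 (0.41), Ets2 (0.49) and Creb1 (0.33) also rose. Srf itself was at 1.30, 2.03 and 2.53 CPM in cKO and 1.99, 2.72 and 2.79 CPM in wild type, with overlapping groups (log2 fold change -0.26, limma adjusted p = 0.265). Elk1 (0.05) and the MRTF gene Mkl1 (-0.20) did not pass the test. The median log2 fold change of the list was 0.26, beside 0.03 over all tested genes.

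The kinases of the ERK cascade, from RAS to the RSK and MSK kinases, moved in both directions: 4 of 15 were called higher and 5 lower, or 60.0% called beside 36.9% of all tested genes, with a median of -0.01. The MEK gene Map2k2 fell from a mean of 168 to 126 CPM (log2 fold change -0.41, limma adjusted p = 0.000548, n = 3 each). Hras, a small GTPase gene, fell by 0.47, while Braf rose by 0.31. The ERK gene Mapk3 (-0.13) did not pass the test. Leaving out cKO replicate 2, or wild-type replicate 1 or 2, brought the higher count to 2, and the lower count was 3 without cKO replicate 1 or 3. Of 11 phosphatases and feedback inhibitors of ERK, 9 were tested, 2 of them higher and 1 lower, with a median of 0.17. That is 33.3% called, near the 36.9% of all tested genes. Dusp6 (0.39), the cytoplasmic ERK phosphatase, and Dusp1 (0.37) rose and Spred2 fell by 0.38. Spry2 was at -0.02 and Spry4 at 0.21, neither called.

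NAB2 is known to bind CHD4, a helicase of the NuRD repressor complex. Of 13 NuRD subunit genes tested, 2 were higher and 4 lower, or 46.2% called beside 36.9% of all tested genes, with a median of 0.05. Chd4 averaged 628 CPM in the cKO libraries and 605 CPM in the others (log2 fold change 0.05, limma adjusted p = 0.689). Hdac1, a histone deacetylase gene, fell from 27.1 ± 1.26 to 13.8 ± 0.900 CPM (log2 fold change -0.93, limma adjusted p = 7.86e-06; SD, n = 3 each). Mta1 (-0.45) and Mta3 (-0.42) fell and Chd3 (0.61) rose. The higher count was 1 without any 1 of cKO replicates 1, 2 and 3 or wild-type replicates 2 and 3, and 4 with the replicate number as a block.

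Genes reported elsewhere as targets of EGR factors, a list that leaves out Nab2, numbered 27, of which 20 were tested. Of these 9 were higher and 4 lower, or 65.0% called, beside 36.9% of all genes, and the median was 0.15. Mmp14, a membrane metalloproteinase gene, rose from 7.20 ± 0.768 to 21.1 ± 2.68 CPM (log2 fold change 1.43, limma adjusted p = 1.45e-06; SD, n = 3 each). Igf2, an insulin-like growth factor, rose by 0.79. Epha4, an ephrin receptor gene that Egr2 controls in the hindbrain, was at 0.550 ± 0.354 CPM in wild type and 1.97 ± 0.465 CPM in cKO. It reached 1 CPM in cKO libraries only and passed the filter through that group, so little is read from its place among the 9. Pdgfa (0.48) and Tgfb1 (0.63) rose too. The other way, Ngfr, a neurotrophin receptor gene, fell by 0.90, the HLH regulator gene Id3 by 0.52 and Ndrg1 by 0.42. Ptgs2 was also called lower (log2 fold change -0.61), and it passed the filter only through the wild-type libraries. Arc, a neuronal target of Egr1 and Egr3, did not pass the filter on low values and was at 0.549, 0.594 and 0.712 CPM in cKO and 0.260, 0.175 and 0.0998 CPM in wild type. Fn1 (-0.31), Vegfa (0.10) and Trp53 (-0.13), also on the list, did not pass the test.

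The myelin genes that Egr2 drives in Schwann cells gave 4 tested genes of 8, with 1 higher and 1 lower, or 50.0% called beside 36.9% of all tested genes. Pmp22, a membrane protein gene of myelin that many other tissues also express, fell from 345 ± 27.6 to 148 ± 16.4 CPM (log2 fold change -1.22, limma adjusted p = 5.28e-07; SD, n = 3 each). Prx, which encodes periaxin and is also expressed in lens fibers, rose by 0.45. The Schwann lineage factor gene Sox10 was at 0 in cKO libraries and averaged 0.0292 CPM in wild type.

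Immediate early genes of other families gave 21 tested genes of 25, with 17 higher and 2 lower, or 90.5% called, beside 36.9% of all genes. Their median was 0.53. Atf3, among the 17, was at 0.780, 0.614 and 0.998 CPM in wild type and passed the filter only through the cKO libraries. Klf4, a zinc finger factor gene, was at 5.84, 7.02 and 6.62 CPM in cKO and 1.13, 1.58 and 1.20 CPM in wild type (log2 fold change 1.71, limma adjusted p = 1.45e-06). Cyr61, a matricellular target of SRF and YAP, rose by 1.35. Fos, the AP-1 subunit gene, was at 6.69, 8.01 and 9.89 CPM in cKO and 1.04, 2.63 and 1.30 CPM in wild type (1.82, limma adjusted p = 3.18e-05), with its lowest and highest cKO libraries the same as for Egr1. Ier2 (1.08) and Junb (1.21) rose as well, while Myc (-0.72) and Ctgf (-0.39) fell. On the log2(CPM + 1) scale all of these differences were smaller than those of Egr1 and Nab2, and those of Fos and Klf4 were larger than that of Nab1. By the ratio of mean CPM, Cyr61 (6.69 CPM in cKO against 2.01) and Atf3 (2.64 against 0.797) were above Nab1 (3.04) too. In 6 of the 21 genes cKO replicate 1 was the lowest and replicate 3 the highest cKO library, as for Egr1, beside 15.1% of all tested genes. With only genes averaging 5 CPM or more, 9 were higher, and without wild-type replicate 1 the lower count was 1.

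**Figure D4:**
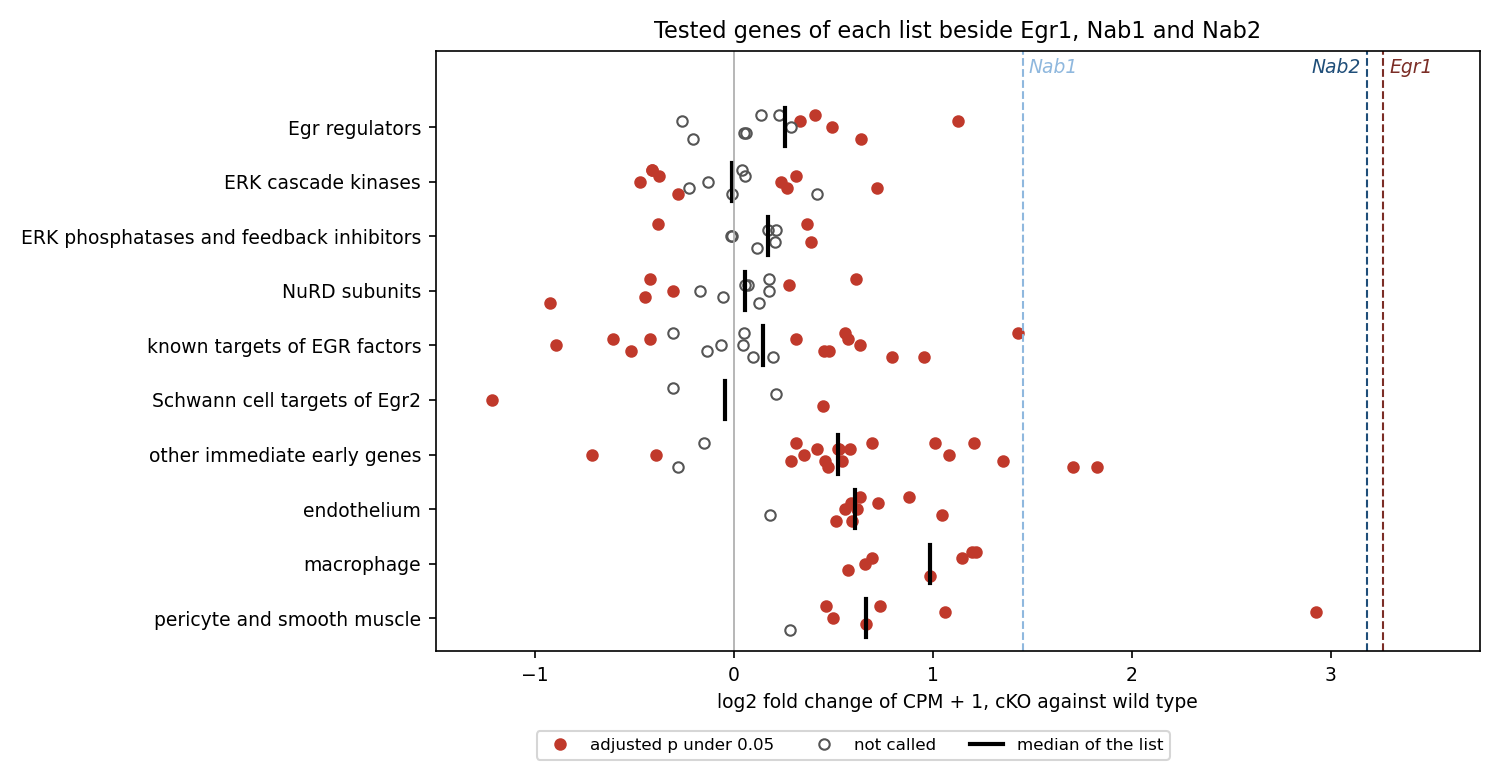
log2 fold change of CPM + 1, cKO against wild type, for the tested genes of 7 pathway lists and 3 lists of cell type markers (rows), with called genes filled, other genes open and the list median as a bar; dashed lines mark Nab1, Nab2 and Egr1. The kinase, phosphatase and NuRD lists lie on both sides of 0, most immediate early and vascular or macrophage markers lie above 0, and no tested gene of these lists reaches Nab2 at 3.18 or Egr1 at 3.27.

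Egr1 is expressed by many cell types, including those of the vessels around the lens, and markers of those cells moved in the same libraries. Over all tested genes, 20.9% were called higher. Endothelial markers were higher for 9 of 10 tested and lower for 0, with a median of 0.61 and a highest value of 1.05 (Tek), and summed to 226 to 269 CPM in cKO and 137 to 170 CPM in wild type. Macrophage markers were higher for 7 of 7 tested, of 10 in the list, with a median of 0.98 and a highest value of 1.22 (C1qa), and summed to 23.6 to 32.8 CPM and 9.02 to 12.3 CPM. Pericyte and smooth muscle markers were higher for 6 of 7, with a median of 0.66, and summed to 168 to 200 CPM and 72.5 to 80.8 CPM; apart from Acta2 (2.92) the highest was Rgs5 (1.06). Periocular mesenchyme markers were higher for 4 of 5 tested, of 8 in the list, and summed to 33.6 to 51.2 CPM and 17.2 to 20.7 CPM, with Foxc2 at 0 throughout. Erythroid markers had 2 of 4 tested higher and 1 lower, and neural retina and Schwann cell or neural crest markers 0 of 1 and 0 of 2 called. On the log2(CPM + 1) scale the differences of Egr1 and Nab2 were larger than those of every marker tested, and that of Nab1 was larger than those of every marker except Acta2. By the ratio of mean CPM, Nab1 (3.04) was also below the macrophage markers C1qa (3.81 CPM in cKO against 1.06), Cx3cr1 (4.38 against 1.34) and Mrc1 (4.31 against 1.38). By the same measure Acta2 (44.4 against 4.80) came near Egr1 (10.9). So did the mesenchyme marker Twist1 (0.929 against 0.0870), which was too low to be tested. The part of these cells in the Egr and Nab levels was not tested, and in bulk RNA more cells of a type and more RNA per cell cannot be told apart. The time from dissection to lysis, to which immediate early genes are sensitive, was not used here, and its part was not tested.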

How the data were processed

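Per the labels' protocols, poly(A) RNA of pooled lenses went into TruSeq RNA v2 libraries, sequenced as single 50-base reads. Per the file headers, the authors deposited CPM and RPKM for each feature. Build GRCm38 and edgeR come from the submitters' processing notes; aligner, counting program and annotation release: not given in the sources used here. In all 6 libraries 100% of CPM values were whole multiples of the value of 1 read (tolerance 0.02 reads), so whole reads were recovered, and 1 read was worth 0.0356 to 0.0998 CPM. Rows without an Ensembl identifier held 0.192% to 0.208% of the reads. RPKM was used to compare levels between genes.

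The test was limma 3.58.1 (trend, robust, group as the only term) on log2(CPM + 1), with genes at 1 CPM or more in at least 3 libraries. A gene could pass this filter through 1 group alone. Alternatives were TMM and RLE scaling, a pseudocount of 0.1, no filter or a mean of 5 CPM, the replicate block, edgeR 4.0.16 and DESeq2 1.42.0 on recovered reads, and leaving out each library. Tested on simulated counts for cKO against wild type over 11643 genes, the fit recovered 96% of those given a 1.5-fold change and 100% of those given a 2-fold change, with 6 false among 202 calls. The simulation gave all genes the same dispersion and changed only genes at 5 CPM or more in wild type. These rates therefore need not hold for genes of wider spread or lower level. Replicates differed by more than counting noise (chi-square per degree of freedom 4.27 to 20.09). Coordinates are from GENCODE M21 (GRCm38) and promoters from RefSeq.

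The members and lists were chosen with earlier results of these data known. Named genes are the members, Itgb1, Egr4, overlapping and neighbouring genes, the 4 called genes per list at the lowest adjusted p (some are not reported here), the 5 nearest in pattern to Egr1 and to Nab2 (tested, with a proper name and no overlap with the member), and other list genes, which were picked as examples with their values in view.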

Additional observations from a re-analysis of the deposited data

How the results depend on the processing

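The higher and lower counts over all genes and those of the lists stayed within 1.5 times the main count except as follows. The NuRD count of 2 higher was 1 with RLE scaling, no filter on low values or DESeq2, and 4 with the replicate block. The immediate early count of 17 higher was 9 with a mean of at least 5 CPM, where fewer genes were tested. The log2 fold change of Nab1 was 1.59 with a pseudocount of 0.1, 1.58 with edgeR and 1.58 with DESeq2, and that of Nab2 was 3.74, 3.78 and 3.79, since these settings shrink low wild-type values less than a pseudocount of 1. When each library was left out in turn, the counts ran from 2 to 4 higher and 3 to 5 lower for ERK cascade kinases, 1 to 3 higher for NuRD subunits, and 1 to 2 lower and 13 to 17 higher for other immediate early genes. Egr1 ran from 3.09 to 3.46, Nab1 from 1.40 to 1.49 and Nab2 from 3.12 to 3.23. The direction of Egr1, Nab1 and Nab2 was the same in all alternatives. Their groups did not overlap, so leaving out a library or changing the pseudocount could not have reversed it, and nothing is read from that. The cause of the other shifts was not tested.

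Replicate numbers are shared between the groups. The correlations of deviations from the group means between libraries of the same number were 0.327, -0.034 and 0.147. Those between libraries of different number ran from -0.314 to 0.207. These few values cannot settle whether the numbers pair the libraries, and the main fit had no replicate term. With the replicate number as a block 2916 genes were higher and 2249 lower, against 2499 and 1904 without it. The wild-type levels of Nab2 (16 to 19 reads), Egr2 and Egr3 are limited by depth. Egr2 and Egr3 were not fitted.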
